A study of Mus musculus with 18 samples.

Results

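The Period genes Per1, Per2 and Per3 and the cryptochrome genes Cry1 and Cry2 were followed across the cell types of mouse dermis over the day. These 5 genes were taken by symbol from the 32285 genes in the count matrices. The study collected dorsal dermis from WT C57BL/6J male mice of about 54 days, kept under 12 h of light and 12 h of dark, with hair follicles in their resting phase. Skin was taken every 4 h for 3 days and dissociated with collagenase, and live cells were sorted and sequenced in droplets, with 1 library for each of 18 mice. The groups are 6 zeitgeber times (ZT, hours from lights on), ZT2, ZT6, ZT10, ZT14, ZT18 and ZT22, with 3 mice in each. All groups share genotype, strain, sex and tissue, and no group received a treatment, so the design compares times of day within a mouse strain and cell types within a mouse.

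PER and CRY proteins form the negative limb of the mammalian circadian clock. The activators CLOCK (or NPAS2) and BMAL1, which Arntl encodes, bind E-box motifs and switch on the Period and cryptochrome genes, whose proteins then enter the nucleus and repress those activators. A further loop of nuclear receptors (REV-ERB and ROR) and bZIP factors (DBP, TEF, HLF and their antagonist NFIL3), which act at D-box motifs, sets the hours at which the single genes peak. Per1 and Per2 are also known as genes that glucocorticoids and cell stimulation can induce outside the loop.

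The libraries held 4850221 to 40827442 unique molecular identifiers (UMIs, 1 per captured transcript), and 16877 of 23990 barcodes passed the filter of the study, with 177 to 1998 cells per library. Of these cells, 73 carried 1 of 36 barcode sequences found in more than 1 library, in at most 3 libraries. Clusters rebuilt here gave 12574 fibroblasts, 1511 macrophages, 473 monocytes, 288 dendritic cells and 738 skeletal muscle cells. The 6 fibroblast markers summed to a median of 749.8 UMIs per 10000 in fibroblasts and 6.58 in macrophages, and the 8 macrophage markers to 210.3 in macrophages and 0.284 in fibroblasts. The 7 monocyte markers reached 25.7 in monocytes and 9.72 in fibroblasts, and the monocytes also held 88.6 of the macrophage markers, so they are not free of the macrophage pattern. The 9 dendritic cell markers reached 15.6 in dendritic cells and 3.46 in macrophages, and the 7 muscle markers 2180 in muscle cells. Dendritic cells also held 12.3 of the monocyte markers, and the fibroblasts led by Rsad2, Ifit3 and Ifit1 held 22.1. The sum of the monocyte markers thus does not set monocytes clearly apart. Sums of at least 10 cells existed in all 18 libraries for fibroblasts and macrophages, in 17 for muscle cells, in 12 for dendritic cells and in 10 for monocytes, and each type covered all 6 zeitgeber times. The border between macrophages and monocytes moved with the clustering, to 1627 and 296 cells at a finer resolution. ZT14 replicate 1 stood apart, because 43.8% of its cells were fibroblasts and 20.8% of those fell in a sub-cluster led by the interferon-induced genes Rsad2, Ifit3 and Ifit1, which held at most 3.84% of the fibroblasts of any other library. ZT18 replicate 1 had the fewest cells. Levels below are UMIs of a gene per 10000 UMIs of the summed cells of a type in 1 library, and a lower level can mean fewer transcribing cells or fewer transcripts per cell, which cannot be told apart in the sums.

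Promoters of the members are shown because the members peaked hours apart and the motifs of the clock loops lie in some of these windows and not in others. The windows searched were 300 bases long, 250 before and 50 after a start site, from RefSeq on GRCm38.p6, and the 250 bases before the start site are printed 5′ to 3′ on the strand of the gene. Capitals mark matches on either strand to CACGTG (E-box), CACGTT (a variant E-box, AACGTG on the other strand) or TTATGTAA (D-box), and TAGGTCA (ROR element) and TGACGTCA (cAMP response element) were searched and had no match in them.
Per1 (chr11:69098699-69098948, forward strand): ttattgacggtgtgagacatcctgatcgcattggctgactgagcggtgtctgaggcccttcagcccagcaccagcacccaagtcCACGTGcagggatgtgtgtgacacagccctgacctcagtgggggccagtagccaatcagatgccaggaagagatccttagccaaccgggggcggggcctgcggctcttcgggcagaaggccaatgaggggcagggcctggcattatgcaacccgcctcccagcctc
Per3 (chr4:151044666-151044915, reverse strand): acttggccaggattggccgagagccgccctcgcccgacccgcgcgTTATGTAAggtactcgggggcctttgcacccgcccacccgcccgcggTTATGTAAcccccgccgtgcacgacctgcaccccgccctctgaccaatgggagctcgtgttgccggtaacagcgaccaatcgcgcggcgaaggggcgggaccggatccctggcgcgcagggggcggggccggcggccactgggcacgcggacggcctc
Cry1 (chr10:85185055-85185304, reverse strand): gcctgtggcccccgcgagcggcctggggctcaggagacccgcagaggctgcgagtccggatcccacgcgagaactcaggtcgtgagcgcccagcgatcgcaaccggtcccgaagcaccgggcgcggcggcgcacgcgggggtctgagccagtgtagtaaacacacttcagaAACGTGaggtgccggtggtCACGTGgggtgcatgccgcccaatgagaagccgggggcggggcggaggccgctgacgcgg
Cry2 (chr2:92434070-92434319, reverse strand): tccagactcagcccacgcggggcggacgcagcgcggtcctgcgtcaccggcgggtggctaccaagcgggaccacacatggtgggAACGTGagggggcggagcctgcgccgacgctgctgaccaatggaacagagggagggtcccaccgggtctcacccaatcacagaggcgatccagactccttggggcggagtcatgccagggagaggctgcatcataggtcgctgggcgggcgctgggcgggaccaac
The Per1 window held CACGTG with its first base at position -166, and the window of another Per1 start site had no match. In Per3 TTATGTAA lay at -205 and -158. The Cry1 window held CACGTG at -60 and CACGTT on the reverse strand at -79, and that of Cry2 only CACGTT on the reverse strand, at -166. Of 32851 mouse promoter windows of this length, 7.15% held CACGTG, 4.69% CACGTT, 0.938% TTATGTAA, 2.61% TAGGTCA and 1.79% TGACGTCA. A match describes the letters only, and binding was not measured. Per2 had no window in the table used here.

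All 5 members changed with a 24 h rhythm in fibroblasts (24 h sine and cosine terms in the edgeR quasi-likelihood test, adjusted p under 0.05 over all genes), where 13.7% of 12429 genes did. Cry1, Per2 and Per3 swung widely in relation to their own means, and Cry2 least. Below, the highest and lowest times of a gene were picked by their means, so a lack of overlap between them is no test. Fibroblasts are the matrix-producing cells of the dermis.

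Per1 (ENSMUSG00000020893, chr11:69095217-69109960 on GRCm38, forward strand) encodes the Period protein known for fast induction by light and hormones. In fibroblasts it read 0.431, 0.442 and 0.450 UMIs per 10000 at ZT10, the 3 highest of the 18 libraries, and 0.209, 0.187 and 0.210 at ZT22. The means were 0.249 ± 0.0423 (SD, n = 3 here and below) at ZT2, 0.359 ± 0.0542 at ZT6, 0.236 ± 0.0639 at ZT14 and 0.257 ± 0.0974 at ZT18. ZT10 and ZT22 did not overlap and differed 2.18-fold, while the dark-phase times overlapped one another. The rhythm passed the test with an adjusted p of 0.00373.

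Per2 (ENSMUSG00000055866, chr1:91415982-91459324, reverse strand) encodes the Period protein whose loss shortens or abolishes behavioural rhythms in mice. Its fibroblast level was 0.0117, 0.0171 and 0.0155 at ZT2, the 3 lowest libraries, and 0.184, 0.357 and 0.339 at ZT14. Between them it read 0.0588, 0.0649 and 0.119 at ZT6 and 0.151, 0.290 and 0.164 at ZT10, and after ZT14 it read 0.203, 0.190 and 0.267 at ZT18 and 0.0949, 0.128 and 0.0919 at ZT22. The mean thus rose through the light phase and fell through the dark phase, with a 19.9-fold difference between ZT14 (0.294 ± 0.0951) and ZT2 (0.0148 ± 0.00277). The lowest value at ZT14 was that of replicate 1, the library with the lowest share of fibroblasts (43.8% of its cells). The adjusted p was 0.000182.

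Per3 (ENSMUSG00000028957, chr4:151003652-151044665, reverse strand) encodes a Period protein that is not needed for the core oscillation. It read 0.904, 1.07 and 1.12 at ZT10 and 0.716, 1.08 and 0.835 at ZT14 in fibroblasts. At ZT2 the values were 0.166, 0.207 and 0.156, and at ZT22 they were 0.125, 0.205 and 0.210. The ZT10 mean (1.03 ± 0.115) was 5.86 times that at ZT2 (0.176 ± 0.0270), the groups did not overlap, and the rhythm had an adjusted p of 7.21e-07. Camta1 overlaps Per3 on the same strand in the annotation, and the effect of this overlap on the Per3 counts was not tested.

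Cry1 (ENSMUSG00000020038, chr10:85131700-85185064, reverse strand) encodes the cryptochrome that represses CLOCK and BMAL1 late in the cycle. In fibroblasts it was at 0.306, 0.300 and 0.240 at ZT22 and at 0.210, 0.273 and 0.259 at ZT18. It read 0.0921, 0.0667 and 0.0806 at ZT2 and 0.0212, 0.0288 and 0.0196 at ZT6. The 6 libraries of ZT18 and ZT22 lay above all others, and ZT22 (0.282 ± 0.0364) was 12.2 times ZT6 (0.0232 ± 0.00491), with an adjusted p of 2.20e-06.

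Cry2 (ENSMUSG00000068742, chr2:92403646-92434043, reverse strand) encodes the other cryptochrome repressor. It had the flattest course, with 0.496, 0.524 and 0.541 at ZT10 against 0.412, 0.388 and 0.353 at ZT2 in fibroblasts. These means (0.520 ± 0.0230 and 0.385 ± 0.0299) differed 1.35-fold without overlap, and all 18 libraries lay between 0.351 and 0.541. Its adjusted p was 0.0375, and it ranged from 0.00986 to 0.0810 when each library was left out in turn, over 0.05 in 11 of 18 cases. Over all cells pooled, 4 of 5 members passed, where 5.44% of 13851 genes did, and Cry2 had an adjusted p of 0.202, which was 0.0340 without ZT14 replicate 1. The annotation places D930015M05Rik on the other strand within Cry2.

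A 24 h cosine fitted to the levels placed the fibroblast peaks of Per1 at ZT 8.70 ± 0.970 (jackknife SE over 18 libraries, h), Cry2 at 9.45 ± 1.27, Per3 at 11.02 ± 0.366, Per2 at 14.4 ± 0.454 and Cry1 at 19.4 ± 0.413. The Per1 peak minus the Per2 peak was -5.65 ± 1.06 h, and the Per2 peak minus the Cry1 peak -5.06 ± 0.530 h. The amplitude was 34.5% ± 8.16 of the mean level for Per1, 87.1% ± 8.11 for Per2, 81.1% ± 6.05 for Per3, 95.7% ± 8.89 for Cry1 and 12.8% ± 3.73 for Cry2. Per1 and Cry2 thus peaked in the light phase with shallow swings, Per3 in the light phase with a deep one, and Per2 and Cry1 in the dark phase with deep ones. The plot of levels over the day shows each library behind these fits.

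**Figure D1:**
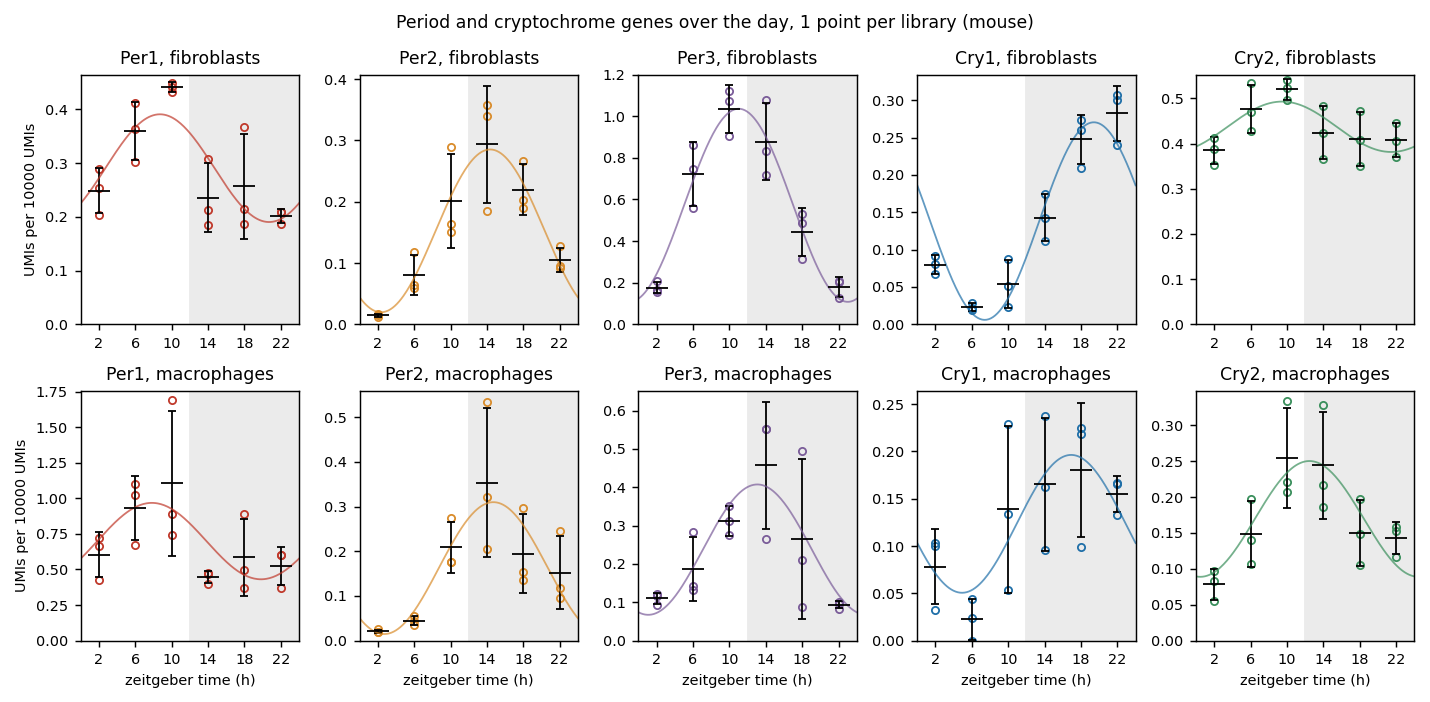
Levels of Per1, Per2, Per3, Cry1 and Cry2 (UMIs per 10000 UMIs, vertical axes from 0) against zeitgeber time (h) in fibroblasts (upper panels) and macrophages (lower panels). Circles are single libraries, bars the mean ± SD of 3 mice, lines the fitted 24 h cosine and grey the dark phase; in fibroblasts Per2 is lowest at ZT2 and highest at ZT14, and Cry1 is lowest at ZT6 and highest at ZT22.

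Other genes of the clock loops were counted by list in fibroblasts. The activators Arntl, Clock and Npas2 all passed (3 of 3). In the log-scale fit of the rhythm test Arntl peaked at ZT 22.6 and Clock at 22.3. The latest member by ZT hour in that fit was Cry1, at ZT 19.1. Of the nuclear receptors 2 of 3 tested passed, Nr1d1 and Nr1d2, and Rora had an adjusted p of 0.0726. All 4 of Dbp, Tef, Hlf and Nfil3 and all 3 of Ciart, Bhlhe40 and Bhlhe41, repressors at E-boxes, passed too. None of 10 immediate early genes passed (adjusted p 0.0991 to 0.9997). Of 7 glucocorticoid targets 1 did, Sgk1, a kinase gene, with a peak at ZT 8.31 in the log-scale fit. These counts stand beside 13.7% of all genes tested, and the lists were chosen because their genes belong to the clock or to its known inputs.

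The fibroblast course of Per3 was most like those of Tef (Pearson r = 0.993 over the 18 libraries, on log2 CPM + 1), Bhlhe41 (0.973) and Hlf (0.964). Among the genes nearest to Per2 were Ddr1 (0.907) and Rcan2 (0.898). For Per1 they were B930095G15Rik (0.914), Tmem86a (0.888) and Gpr146 (0.873), for Cry1 Aldh4a1 (0.857), Clpb (0.842) and Dnah3 (0.841), and for Cry2 Peli2 (0.879), Trerf1 (0.850) and Prex1 (0.834). Among the members, Per3 went with Cry2 (0.716), Per2 (0.661) and Per1 (0.590), while Per1 ran against Cry1 (-0.732). Within a library all genes share its depth and its time of collection, which differ between libraries, and the values are a description.

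In macrophages, the phagocytes of the dermis, Per2, Per3 and Cry2 passed the rhythm test, 3 of 5 members where 1.26% of 8273 genes did. Per2 read 0.0249, 0.0186 and 0.0181 at ZT2 and 0.205, 0.321 and 0.534 at ZT14 (means 0.0205 ± 0.00376 and 0.353 ± 0.167, 17.2-fold, adjusted p 0.00170). Per3 read 0.265, 0.553 and 0.553 at ZT14 and 0.101, 0.0964 and 0.0833 at ZT22 (means 0.457 ± 0.166 and 0.0935 ± 0.00910, 4.89-fold, adjusted p 0.000219). For both genes the high and low times did not overlap, and Per2 had the same highest and lowest times as in fibroblasts. The ZT2 values of Per2 rest on 3 or 4 UMIs per library.

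Cry2 ran from 0.0829, 0.0976 and 0.0544 at ZT2 to 0.220, 0.208 and 0.334 at ZT10 in macrophages, again the lowest and highest times it had in fibroblasts, without overlap. The means of 0.0783 ± 0.0219 and 0.254 ± 0.0697 differed 3.24-fold. Its adjusted p of 0.0411 ranged from 0.0150 to 0.11 with single libraries left out, over 0.05 in 12 of 18 cases, and Cry2 also missed the threshold with a replicate block (0.0538), with sums of at least 20 cells and at the finer clustering.

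Per1 and Cry1 missed the threshold in macrophages, with adjusted p of 0.0807 and 0.0962. Per1 read 0.890, 0.743 and 1.69 at ZT10 and 0.470, 0.473 and 0.395 at ZT14. Cry1 lay between 0 and 0.0439 at ZT6, where 1 library had no UMI, and between 0.0989 and 0.225 at ZT18. These times were picked as the highest and lowest by their means, so their lack of overlap is no sign of a rhythm. With no filter on low counts and with DESeq2 all 5 members passed, 4 did without ZT14 replicate 1 and ZT18 replicate 1, and 2 did at the finer clustering, so the count in macrophages depends on the processing. The shares of all genes that passed under these settings are not given here.

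The difference in rhythm between macrophages and fibroblasts of the same mice was tested directly and passed for 1 of 5 members, Cry2 (adjusted p 0.0394), where 0.757% of 12551 genes passed. This call was lost in 12 of 18 cases with 1 library left out (range 0.0285 to 0.136) and at the finer clustering. Per3 and Cry1 had adjusted p of 0.117 each, and both passed with no filter on low counts. The macrophage peak minus the fibroblast peak was 3.00 ± 1.37 h for Cry2, 2.06 ± 0.941 h for Per3 and -2.49 ± 1.06 h for Cry1, against 0.351 ± 0.621 h for Per2 and -0.890 ± 1.17 h for Per1. The amplitude of Cry2 was 47.6% ± 10.1 of its mean in macrophages and 12.8% ± 3.73 in fibroblasts, and that of Cry1 59.1% ± 16.0 and 95.7% ± 8.89. Amplitudes of Per2 differed by less than their errors, at 91.0% ± 15.4 and 87.1% ± 8.11.

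**Figure D2:**
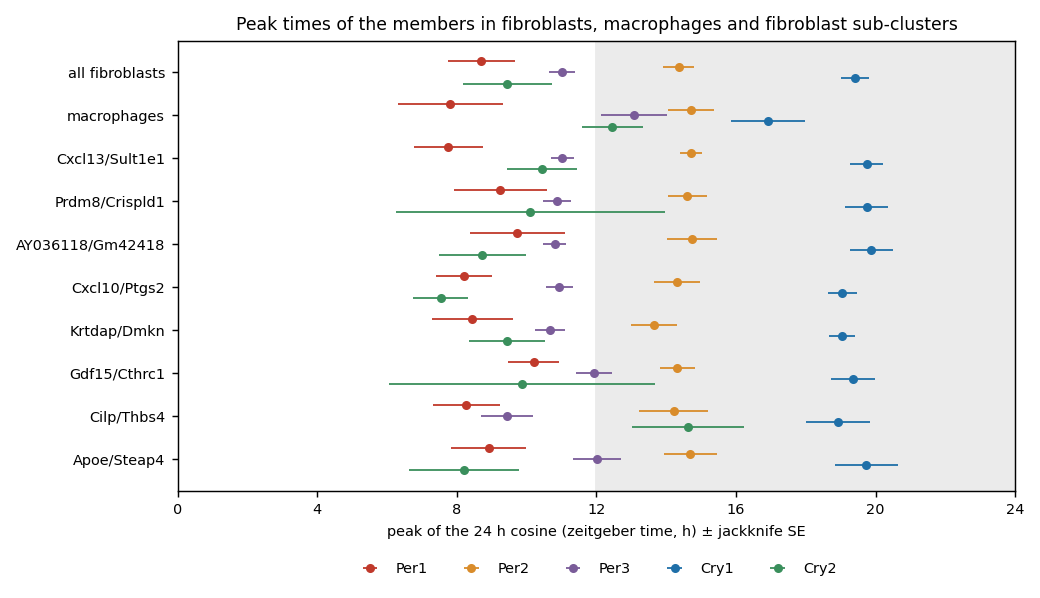
Peak of the fitted 24 h cosine (zeitgeber time, h) for each member in fibroblasts, macrophages and 8 fibroblast sub-clusters named by leading genes; bars are ± 1 jackknife SE over libraries and grey is the dark phase. Per1 precedes Per3, Per3 precedes Per2 and Per2 precedes Cry1 in each line, while the Cry2 peaks have errors of up to 3.85 h and its rhythm passed in 2 of the 8 sub-clusters.

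Of the other clock genes, Arntl (1 of 2 activators tested), Nr1d1 and Nr1d2 (2 of 3 nuclear receptors) and Dbp and Tef (2 of 3 bZIP genes) passed in macrophages, beside 0 of 2 E-box repressors. None of 10 immediate early genes (lowest adjusted p 0.185) or 7 glucocorticoid targets (0.0898) passed there. Per1 averaged 0.603, 0.933, 1.11, 0.446, 0.585 and 0.524 from ZT2 to ZT22 in macrophages, and the summed immediate early genes averaged 74.7, 143.7, 153.9, 77.3, 76.0 and 122.3 per 10000 at the same times. The sum of the glucocorticoid targets was 19.3, 34.8, 43.9, 25.1, 23.0 and 29.0. Per1 and both sums had their highest mean at ZT10. The lowest mean was at ZT2 for both sums and at ZT14 for Per1. For Per1 and both sums the libraries of ZT2 and ZT14 overlapped, and so did those of ZT6 and ZT10. Neither the lowest nor the highest times are thus resolved. The fitted cosine peaked at ZT 7.81 for Per1, 7.32 for the immediate early sum and 9.17 for the glucocorticoid sum. Each of these peaks had a jackknife SE over 1 h. In fibroblasts the immediate early sum peaked at ZT 3.83 ± 1.64, with an amplitude of 13.4% ± 6.17 of its mean. The glucocorticoid sum peaked there at ZT 11.01 ± 5.74, with an amplitude of 9.74% ± 9.02, so its peak is not resolved. Per1 peaked at ZT 8.70 ± 0.970 in fibroblasts, later than the immediate early sum. Per1 and both sums had their highest fibroblast mean at ZT10. For both sums the ZT10 libraries overlapped those of ZT6, ZT18 and ZT22 there, so the highest time of the sums is not resolved. The part of both lists in the level of Per1 was not tested.

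Monocytes and dendritic cells could be tested for a rhythm of Per1 only, because the other members had too few UMIs to pass the filter. In monocytes, which come from the blood, Per1 averaged 1.69 ± 0.233 at ZT10 (2 libraries) and 0.701 ± 0.179 at ZT14 (3 libraries), its highest and lowest times. Its adjusted p was 0.9998 at an unadjusted p of 0.574, and 0% of 4238 genes passed. In dendritic cells, which present antigen, Per1 averaged 1.26 ± 0.404 at ZT6 and 0.342 ± 0.223 at ZT22 (2 libraries), its highest and lowest times. Per1 had an adjusted p of 0.9996 there at an unadjusted p of 0.0307, where 0.0328% of 3050 genes passed. DESeq2 was run after the same filter and so on Per1 alone of the members, and it called 0 members in either type. ZT6, ZT18 and ZT22 rested on 1 monocyte library each, and ZT10 and ZT18 on 1 dendritic library each. The difference in rhythm from fibroblasts passed for 0 of 5 members in monocytes, where 0.468% of 12402 genes passed, and for 0 of 5 in dendritic cells, where 0.284% of 12308 did, with 0 members at an unadjusted p under 0.05 in both. The filter of this comparison used the sums of both types, so Per2, Per3, Cry1 and Cry2 entered it through their counts in fibroblasts. For these members the result does not show that the rhythms are alike.

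Skeletal muscle cells had no member that passed the filter for the rhythm test, where 0.179% of 2791 genes had a rhythm. With no filter 0 members passed, and DESeq2 was run after the same filter, so no member entered it. In the direct comparison with fibroblasts 1 of 5 members differed in rhythm, Cry1, with an adjusted p of 0.0254, where 0.121% of 11566 genes did. The filter of this comparison used the sums of both types, so the members entered it through their counts in fibroblasts (3749 UMIs of Cry1). Cry1 had 40 UMIs in muscle cells over 17 libraries, with a mean of 0.103 ± 0.0584 at ZT10, 0.0199 ± 0.0281 at ZT2 (2 libraries) and 0.0376 to 0.0507 at the other times, and the ZT10 and ZT2 libraries overlapped. In fibroblasts ZT10 was among the low times of Cry1. The call was lost without any 1 of the ZT10 libraries or ZT22 replicate 3 (adjusted p up to 0.0838), and with sums of at least 20 cells.

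Levels of the members differed between cell types in the same mice, and each member had its own order. Per1 was higher in macrophages, monocytes and dendritic cells than in fibroblasts, while Per3 and Cry2 were lower in every other type tested. High Per1 was not limited to these types. Its median was 0.720 in cells led by Ear2 (15 libraries), 0.760 in T cells (7) and 1.12 in natural killer cells (2). Fibroblasts had a Per1 median of 0.271. In the same order, Per3 medians were 0, 0.0378 and 0 and Cry2 medians 0.0480, 0.0625 and 0. Those immune cells entered no test. T cell libraries covered 4 zeitgeber times and natural killer cell libraries only ZT10 and ZT14, the latter with 20 UMIs of Per1. The medians of both are thus not matched in time to the fibroblast median over 6 times. Many genes separate these cell types: 36.8% of 12551 genes were higher and 44.1% lower in macrophages. The number of members called thus says little about them, and their sizes and directions are the result. The filter of these comparisons used the sums of both types. In monocytes, dendritic cells and muscle cells the members called lower did not pass the filter in that type alone. They entered through their counts in fibroblasts, as other genes called lower can, so a call of lower there is no independent result.

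In macrophages Per1 ran from 0.367 to 1.69 (median 0.634) and in fibroblasts from 0.186 to 0.450 (median 0.271). It was higher in macrophages of 18 of 18 mice, with a log2 difference of 1.11 ± 0.08 (SE, adjusted p 8.50e-13). Per3 (median 0.176 against 0.543) was lower in 18 of 18 mice, by a log2 difference of -1.39 ± 0.13, and Cry2 (0.155 against 0.426) in 18 of 18 by -1.51 ± 0.12. For Cry2 the highest macrophage library, 0.334, lay below the lowest fibroblast library, 0.351. Per2 (0.144 against 0.139) and Cry1 (0.118 against 0.102) did not pass, at -0.03 ± 0.12 and -0.20 ± 0.19, and they were higher in 10 and 9 of 18 mice. Macrophage sums held 0.728% (median) of the fibroblast markers of fibroblasts of the same mouse. Per3 stood at 43.9% and Cry2 at 37.9%, and the part of stray fibroblast RNA in these levels was not tested.

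Monocytes showed the same direction for Per1, with a larger log2 difference than macrophages but over fewer libraries. The gaps of both types were not tested against each other. Per1 ran from 0.495 to 1.86 (median 1.16) in the 10 libraries, above the fibroblasts of the same mouse in 10 of 10 (log2 difference 1.78 ± 0.15). Per2 (23 UMIs in all), Per3 (31 UMIs) and Cry2 (26 UMIs) were lower in 9, 10 and 10 of 10 mice, at 25.4%, 10.6% and 12.4% of the pooled fibroblast level. Counting intervals of 95% ran from 16.1 to 38.2, 7.20 to 15.1 and 8.08 to 18.2% and cover counting error only. Per2, Per3 and Cry2 entered the comparison through their counts in fibroblasts. Cry1 (73 UMIs) did not pass, at 0.33 ± 0.24 (adjusted p 0.230), and was higher in 7 of 10 mice; its highest library, ZT18 replicate 2 at 0.645, rests on 10 UMIs. Among all genes 24.9% of 12402 were higher and 41.9% lower in monocytes, and their sums held 0.434% of the fibroblast markers. The 331 cells of the larger of 2 monocyte clusters came to 39.9% from ZT2 replicate 3, where Per1 read 0.743, and the 4 calls held without any single library.

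Dendritic cells had Per1 above fibroblasts and the other 4 members below them. Those 4 entered the comparison through their counts in fibroblasts. Per1 ran from 0.184 to 1.73 (median 0.801) and was above fibroblasts in 11 of 12 mice (log2 difference 1.50 ± 0.16). Only 2 UMIs of Per2, 8 of Per3 and 8 of Cry2 were counted among 3228555, or 3.87% (0.469 to 13.99), 4.68% (2.02 to 9.22) and 5.82% (2.51 to 11.5) of the pooled fibroblast level. Cry1, with 25 UMIs, stood at 52.4% (33.8 to 77.4), called lower with an adjusted p of 0.0376, which passed 0.05 (up to 0.133) without ZT2 replicate 1 or 3, ZT10 replicate 2 or ZT22 replicate 1 or 2. Dendritic sums held 0.295% of the fibroblast markers, and the part of stray fibroblast RNA in these low values was not tested. Here 26.9% of 12308 genes were higher and 43.7% lower.

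Muscle cells were low for 4 of 5 members, at 13.4% of the pooled fibroblast level for Per1 (25 UMIs), 7.50% for Per2 (9 UMIs), 10.3% for Per3 (42 UMIs) and 21.8% for Cry2 (64 UMIs). In the fit these were log2 differences of -1.87, -2.77, -2.37 and -1.17, where 36% of 11566 genes were higher and 48.1% lower. The members entered the fit through their counts in fibroblasts. Fibroblast markers stood at 0.202% of the fibroblast level in the median muscle library and at 13.5% in the highest. The scaling matters in this type, where the 7 muscle markers alone summed to 2180 UMIs per 10000, and the median gene lay at -0.46 with TMM and at -1.85 with DESeq2 size factors. Relative to that median Per1 was at -1.41, Per2 at -2.31, Per3 at -1.91, Cry2 at -0.71 and Cry1 at 0.35 with TMM, and at -1.43, -2.32, -1.93, -0.72 and 0.35 with the other scaling. Cry1 itself was at -0.11 (adjusted p 0.803) with TMM and at -1.51 (0.000459) with the other scaling, and it was also called lower at the finer clustering and with doublet candidates removed.

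The medians over libraries come from 18 libraries for fibroblasts and macrophages, 17 for muscle cells, 12 for dendritic cells and 10 for monocytes, with other mixes of zeitgeber times, so their order is a description. Per1 ran from monocytes (1.16) through dendritic cells (0.801), macrophages (0.634) and fibroblasts (0.271) to muscle cells (0.0383), and only fibroblasts and muscle cells had neighbouring ranges that did not overlap. Per3 ran from fibroblasts (0.543) through macrophages (0.176), monocytes (0.0428) and muscle cells (0.0366) to dendritic cells (0), with overlap at each step. Cry2 had the order fibroblasts (0.426), macrophages (0.155), muscle cells (0.0873), monocytes (0.0644) and dendritic cells (0), with no overlap at the first step. Per2 (macrophages 0.144, fibroblasts 0.139, monocytes 0.0489, the others 0) and Cry1 (monocytes 0.162, macrophages 0.118, fibroblasts 0.102, muscle cells 0.0384, dendritic cells 0.0371) overlapped at every step. Within shared mice, dendritic cells exceeded macrophages for Per1 in 7 of 12, monocytes exceeded muscle cells for Per3 in 4 of 9 and macrophages for Cry1 in 5 of 10, and muscle cells exceeded dendritic cells for Cry1 in 6 of 11. Macrophages exceeded fibroblasts for Cry1 in 9 of 18 mice and for Per2 in 10 of 18. Pooled Cry1 ran against the medians in dendritic and muscle cells, at 52.4% of fibroblasts in dendritic cells and 38.7% in muscle cells. Part of each range is the time of day, as the colours in the plot by cell type show.

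**Figure D3:**
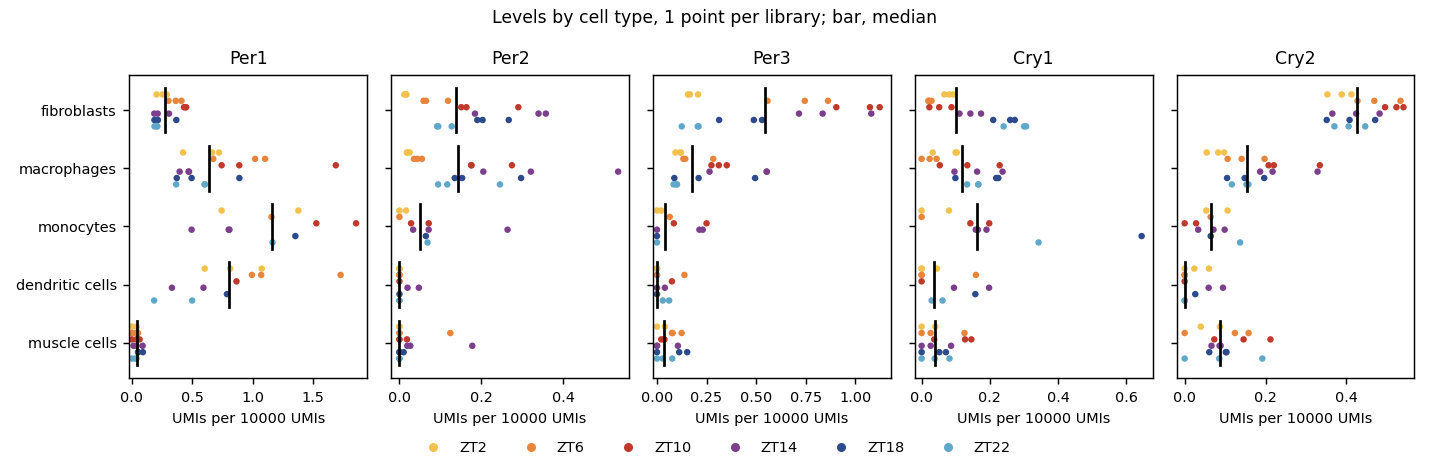
Level of each member (UMIs per 10000 UMIs, horizontal axes) in fibroblasts, macrophages, monocytes, dendritic cells and muscle cells. Points are libraries coloured by zeitgeber time and bars the median. Of the types shown, Per1 has its highest medians in monocytes, dendritic cells and macrophages, and Cry2 in fibroblasts lies to the right of all others.

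Fibroblasts fell into 9 sub-clusters, built without clock genes and named here by leading genes, of which 8 had enough libraries for the rhythm test. Of 39 tested pairs of a member and a sub-cluster 31 passed, where 4.2% of 69627 pairs of a gene and a sub-cluster did. Per3 and Cry1 passed in 8 of 8, Per1 in 7 (not in Apoe/Steap4/Vit, adjusted p 0.155), Per2 in 6 (not in Cilp/Thbs4/Mfap4, 0.105, and not tested in Apoe/Steap4/Vit) and Cry2 in 2, Cxcl13/Sult1e1/Dkk2 and Cxcl10/Ptgs2/Has1. Cry2 in AY036118/Gm42418/E130102H24Rik had an adjusted p of 0.0533, which was 0.0476 with a replicate block. With single libraries left out 27 to 32 pairs passed, and the calls lost were Per1 in Cilp/Thbs4/Mfap4 in 8 of 18 cases (up to 0.0886) and in Krtdap/Dmkn/Sbsn in 3 (up to 0.0899), Cry1 in Cilp/Thbs4/Mfap4 in 4 (up to 0.0545) and in Apoe/Steap4/Vit in 1 of 16 (0.0514), and Cry2 in Cxcl10/Ptgs2/Has1 in 3 of 18 (up to 0.0688). The libraries whose removal did so were ZT2 replicate 1, ZT6 replicates 1 and 2, ZT10 replicates 1 and 2, ZT14 replicate 3, ZT18 replicate 3 and ZT22 replicate 1 for Per1 in Cilp/Thbs4/Mfap4, and ZT6 replicate 3, ZT10 replicate 2 and ZT18 replicate 3 in Krtdap/Dmkn/Sbsn. For Cry1 they were ZT2 replicate 1, ZT6 replicates 1 and 2 and ZT22 replicate 2 in Cilp/Thbs4/Mfap4, and ZT6 replicate 1 in Apoe/Steap4/Vit, and for Cry2 ZT6 replicates 1 and 3 and ZT18 replicate 2. Cry2 in AY036118/Gm42418/E130102H24Rik passed without ZT14 replicate 1, ZT18 replicate 3 or ZT22 replicate 3. The peak of Per1 lay between ZT 7.75 and 10.2 over the sub-clusters, that of Per3 between 9.43 and 12.0, that of Per2 between 13.6 and 14.7 and that of Cry1 between 18.9 and 19.9. The rhythm differed among sub-clusters for 0 of 5 members, where 1.05% of 11631 genes did. Per3 alone was under 0.05 unadjusted (adjusted p 0.137), and it passed without ZT2 replicate 3 or ZT18 replicate 3 (as low as 0.0115) and with no filter on low counts.

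The mean level differed among sub-clusters for 5 of 5 members, with adjusted p between 1.57e-31 (Per1) and 1.53e-07 (Per2), but 84.9% of 11010 genes differed too. The sub-cluster led by Gdf15, Cthrc1 and C6, with 724 cells, had low Per3 beside high Cry1, Per1 and Cry2. Per3 there read between 0.0270 and 0.461 (median 0.183, 17 libraries), a median of 31.1% of the level in the other fibroblasts of the same mouse and lower in 17 of 17 mice. Cry1 was at 195% (higher in 15 of 17), Per1 at 146% (15 of 17) and Cry2 at 130% (13 of 17), all 3 medians the highest of the 9 sub-clusters. At ZT14 Per3 was at 0.441 ± 0.0326 in this sub-cluster and 0.877 ± 0.186 in all fibroblasts, and at ZT2 at 0.0403 ± 0.0120 and 0.176 ± 0.0270. Its course kept a deep rhythm, with an amplitude of 96.8% ± 7.37 of the mean.

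Other sub-clusters differed for some or all of the members. Per3 was at 145% of other fibroblasts in AY036118/Gm42418 cells, which are led by transcripts with ribosomal RNA sequence (higher in 16 of 18 mice), and at 138% in Cxcl13/Sult1e1 cells (17 of 18). Per1 was at 135% in Cxcl10/Ptgs2 cells (17 of 17 higher), where Per3 was at 66.8% (16 of 17 lower), and at 74.5% in Cxcl13/Sult1e1 cells (18 of 18 lower). Cry2 was at 47.8% in Apoe/Steap4 cells (16 of 16 lower) and at 59.4% in Cilp/Thbs4 cells (15 of 15 lower), where Per2 was at 132% (10 of 15 higher). In Rsad2/Ifit3 cells Per2 was at 55.9% (8 of 8 lower), on 47 UMIs. The other members were below other fibroblasts there too. Per1 was at 74.0%, Per3 at 79.8% and Cry1 at 75.6% (each 7 of 8 lower), and Cry2 at 67.1% (6 of 8 lower). These percentages describe the sub-clusters, and single sub-clusters were not tested against the rest.

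The sum of 10 immediate early genes differed among the same sub-clusters, with medians of 223.6 per 10000 in Gdf15/Cthrc1, 193.4 in Cxcl10/Ptgs2, 40.0 in Cxcl13/Sult1e1 and 20.8 in AY036118/Gm42418 cells. The sum of 7 glucocorticoid targets was 95.6, 61.9, 18.9 and 13.5 in the same order. Per1 stood above other fibroblasts in Gdf15/Cthrc1 and Cxcl10/Ptgs2 cells and below them in Cxcl13/Sult1e1 and AY036118/Gm42418 cells. In Cilp/Thbs4 and Apoe/Steap4 cells, with immediate early sums of 210.5 and 147, it was at 107% and 104% of other fibroblasts. Their glucocorticoid sums were 44.6 and 63.4, and the value of Apoe/Steap4 cells lay above that of Cxcl10/Ptgs2 cells. In Prdm8/Crispld1, Krtdap/Dmkn and Rsad2/Ifit3 cells, with immediate early sums of 85.2, 46.8 and 45.3, Per1 was at 95.6%, 97.6% and 74.0%. Their glucocorticoid sums were 23.8, 16.7 and 19.0. Both lists were left in when the sub-clusters were built, and the immediate early gene Nr4a1 is among the top genes of Cxcl10/Ptgs2 cells. The differences of the sums among sub-clusters are thus no independent result. The part of these lists in the levels was not tested.

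**Figure D4:**
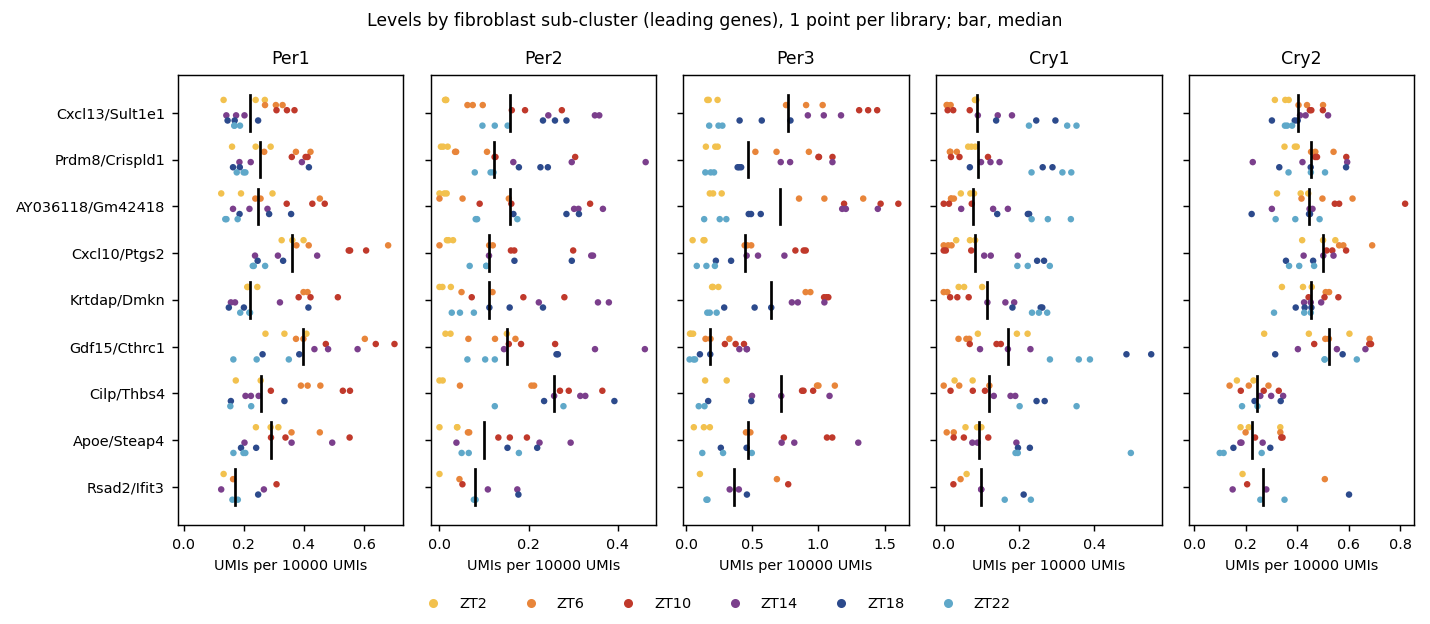
Level of each member (UMIs per 10000 UMIs, horizontal axes) in 9 fibroblast sub-clusters named by leading genes. Points are libraries coloured by zeitgeber time and bars the median; Per3 in Gdf15/Cthrc1 cells stays at or below 0.461, while Per1, Cry1 and Cry2 there have the highest medians of the 9.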

How the data were processed

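Single cells of 18 libraries were sequenced on the 10x platform, and the authors deposited raw counts of UMIs per gene and barcode, made with Cell Ranger 3.1.0 on mm10 per the labels. Barcodes with 850 to 7800 genes and under 13% mitochondrial UMIs were kept, which is the filter of the study. Cells were clustered with scanpy 1.11.5 (2000 variable genes without clock genes, 30 components, 15 neighbours, Leiden resolution 0.8) and named from marker lists. The naming rule (at least 3 markers, each in 25% of cells and at 10% of the highest cluster) was revised after the clusters were seen. The cell labels of the study were not used here, so differences from it may come from the rebuilt names. Doublets were kept, and the removal of candidates by Scrublet score was an alternative.

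Counts were summed per library and type where at least 10 cells existed. Rhythm was tested with edgeR 4.0.16 (quasi-likelihood F test of 24 h cosine and sine, TMM, filterByExpr, Benjamini-Hochberg over all genes, threshold 0.05), and types were compared with the library as a block. DESeq2 1.42.0 was an alternative. Cosine peaks and amplitudes are least squares fits with jackknife errors. The scripts were tested on simulated data. Each mouse is 1 replicate. The members and lists were chosen with earlier results of these data known. Genes named beside them are the 3 with the highest correlation to each member and the clock lists, of which some items are not reported here. Replicate numbers mark the day of collection, by the hours in the titles. The deviations from group means had a median correlation of 0.06 in 45 pairs of libraries with the same number (19 over 0.1) and of -0.053 in 90 pairs with other numbers (22 over 0.1), and the number as a block was an alternative.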

Additional observations from a re-analysis of the deposited data

Results flagged for a closer look

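The rhythm of Cry2 differed between macrophages and fibroblasts in the direct test (edgeR quasi-likelihood test, adjusted p 0.0394), on 343 UMIs of Cry2 in macrophages. The rhythm of Cry1 differed between muscle cells and fibroblasts (adjusted p 0.0254), on 40 UMIs of Cry1 in muscle cells. In muscle cells alone Cry1 did not pass the filter on low counts, and it entered this test through its counts in fibroblasts. The Cry2 call was lost in 12 of 18 cases with 1 library left out and at the finer clustering. The Cry1 call was lost in 4 of 18 cases with 1 library left out and with sums of at least 20 cells.

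Members also had UMIs in immune cells that entered no comparison. Cells led by Ear2 held 495 UMIs of Per1, 28 of Per2, 14 of Per3, 79 of Cry1 and 30 of Cry2. T cells held 130 of Per1, 5 of Per2, 16 of Per3, 36 of Cry1 and 9 of Cry2. Natural killer cells held 41 of Per1 and 8 of Cry1. These counts are not corrected for free RNA.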

How the results depend on the processing

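The number of members with a rhythm in macrophages was 3 as reported, 5 with no filter on low counts, 5 with DESeq2, 4 with zeitgeber time as a factor, 4 without ZT14 replicate 1 and ZT18 replicate 1 (a pair chosen after seeing the data), and 2 at resolution 1.6 or with at least 20 cells. In fibroblasts 4 or 5 members passed with single libraries left out, where Cry2 was the one lost, and 5 under the other alternatives run. Of pairs of a member and a sub-cluster 53 passed at resolution 1.6, which splits fibroblasts into more sub-clusters and so tests more pairs. The number of pairs tested there is not given, so this count cannot be set beside the reported one. The shares of all genes called under the alternatives are not given either, and their counts describe only how far the calls held. The rhythm difference passed for 3 members in macrophages and 1 among sub-clusters with no filter, for 0 in macrophages at resolution 1.6 and for 0 in muscle cells with at least 20 cells. When single libraries were left out, these counts ran from 0 to 1 in macrophages (0 without any of ZT2 replicates 1 to 3, ZT6 replicates 1 and 2, ZT10 replicates 1 to 3, ZT14 replicates 1 to 3 or ZT18 replicate 2), from 0 to 1 in muscle cells (0 without ZT10 replicates 1, 2 or 3 or ZT22 replicate 3) and from 0 to 1 among sub-clusters (1 without ZT2 replicate 3 or ZT18 replicate 3). Level counts kept within 1.5 times under every alternative run. The macrophage border also moved with the numerical precision of the clustering, and the Cry2 calls in macrophages did not pass at another precision tried after seeing the data. The causes were not tested. With a replicate block 4 members passed in all cells, 5 in fibroblasts, 2 in macrophages, 0 in monocytes, 0 in dendritic cells, 0 in muscle cells and 32 pairs in sub-clusters. In the test as reported, no member passed the filter on low counts in muscle cells and only Per1 did in monocytes and dendritic cells. The block ended the call of Cry2 in macrophages, brought Cry2 past the threshold in AY036118/Gm42418/E130102H24Rik cells and changed no other call of a member's rhythm. Rhythm in monocytes was not run at 20 cells or at resolution 1.6, and in dendritic cells not at 20 cells, for too few libraries. Low UMI numbers limit all values in monocytes, dendritic cells and muscle cells.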
